A study of Mus musculus with 16 samples.

Results

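The potassium channel genes of the mouse were taken as every gene in the count table whose symbol is Kcn, followed by letters and a number. The symbol rule gave 92 genes of 48709. They comprise the pore-forming subunits of the voltage-gated, calcium-activated, sodium-activated, inward rectifier and leak channels, together with the auxiliary subunits that carry a Kcn symbol. The study sequenced RNA depleted of ribosomal RNA from the cerebral cortex of C57BL/6 mice. Synaptosomes (SYN), which are pinched-off and resealed nerve terminals isolated from homogenised tissue together with attached postsynaptic material, were taken at 3 weeks, at 5 months and at 19 months, with 4 libraries at each age. Total homogenate (TH), the tissue set aside ahead of the enrichment, was taken at 5 months as the reference, also with 4 libraries. The labels name no transgene, mutation or drug treatment for any group. The design text calls the 4 SYN samples of an age biological replicates, while for TH the labels give replicate numbers alone, and whether a sample was 1 animal or a pool is not given in the sources used here. Where samples share their source, the p-values measure the spread between these samples, which may be partly technical.

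Potassium channels let potassium ions leave or enter the cell, and so they set the resting potential, shape and end the action potential and limit how often a neuron fires. In the cortex, the Kv1 and Kv3 channels sit largely in axons and nerve terminals, where they control transmitter release, whereas the Kv2 and Kv4 channels sit largely in the soma and dendrites. Inward rectifiers and leak channels hold the resting potential of neurons and glia, and astrocytes use an inward rectifier to take up the potassium that active neurons release.

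Library depth ran from 10640232 to 21719869 counts. Between 51837 and 87917 counts per library fell on the 92 genes, which is 0.590 to 0.948% of the counts outside the mitochondrial genome. Mitochondrial genes took 40.1 to 50.5% of the counts in 5 months SYN and 20.2 to 25.1% in TH. Marker lists were used to check the fractions. All 9 tested nuclear RNAs were lower in SYN than in TH, and their summed level was 1648 to 6957 CPM, which is counts scaled to the TMM-adjusted size of each library, in SYN and 21339 to 25317 CPM in TH. All 10 endothelial markers were also lower in SYN, with sums of 29.4 to 63.0 CPM in SYN and 157 to 243 CPM in TH. Of 10 excitatory neuron markers, 5 were higher in SYN, with sums of 6623 to 7846 CPM in SYN and 2739 to 3118 CPM in TH. Glial markers differed by type: 15 of 16 astrocyte markers, all 12 microglial markers and 8 of 10 oligodendrocyte precursor markers were higher in SYN, whereas of 14 oligodendrocyte and myelin markers 6 were higher and 1 was lower. Libraries stood apart in a few respects. Replicate 4 of 5 months SYN held the highest nuclear RNA sum of its group (6957 CPM) and a choroid plexus marker sum of 979 CPM, against 208 to 307 CPM in the other 3 libraries of its group. Replicate 4 of TH held a choroid plexus sum of 3967 CPM, against 116 to 192 CPM in the other 3. Replicate 1 of 19 months SYN had the highest mitochondrial share (57.8%), and replicate 1 of 3 weeks SYN the next (56.3%). In that 3 weeks library the 92 genes summed to 4231 CPM, the lowest sum among the SYN libraries, against 4975 to 5266 CPM in the other 3 of its group. In none of the 120 pairs of libraries did more than 1.3% of 11942 genes have the same count, so no library was counted as a copy of another.

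The first comparison asked which potassium channel transcripts were relatively more abundant in synaptosomes than in total homogenate of the same age. Most were: 52 of the 75 genes that could be tested were higher in SYN, 5 were lower and 18 were not called. A call is a Benjamini-Hochberg adjusted p under 0.05 from edgeR's quasi-likelihood test over all genes, and every adjusted p for a gene below comes from that test. The share called was 76%, against a background of 50.1% of all 17374 genes tested, of which 24.5% were higher and 25.6% lower. The median log2 fold change (SYN over TH) of the 75 genes was 0.77, against -0.05 over all genes tested, and 62 of the 75 values were positive. In 52 genes the 4 SYN libraries and the 4 TH libraries did not overlap (49 higher and 3 lower), against 47.9% of all genes. These are shares of each library's RNA in bulk samples, in which fewer cells of a type and less RNA per cell cannot be told apart. The summed level of all 92 genes was 4966 to 5652 CPM in 5 months SYN and 2895 to 3094 CPM in TH, and the 2 ranges did not overlap. Under upper-quartile scaling the median of all genes was -0.19 and that of the potassium channel genes 0.62, with 49 genes higher and 7 lower. Over all 17374 genes, that scaling gave 3367 higher and 5525 lower.

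By family, the summed level was higher in SYN for each of the 11 groups, by different amounts. The inward rectifiers summed to 706 ± 39.4 CPM in SYN and 350.0 ± 18.8 CPM in TH (SD, n = 4 each). The calcium- and sodium-activated subunits were closest, with 393 ± 28.3 CPM in SYN and 285 ± 7.70 CPM in TH. The auxiliary subunits summed to 667 ± 18.6 CPM in SYN and 412 ± 33.2 CPM in TH, and per kilobase of exon Kcnab2 made up 51.4% of this family in SYN and 34.0% in TH.

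**Figure D1:**
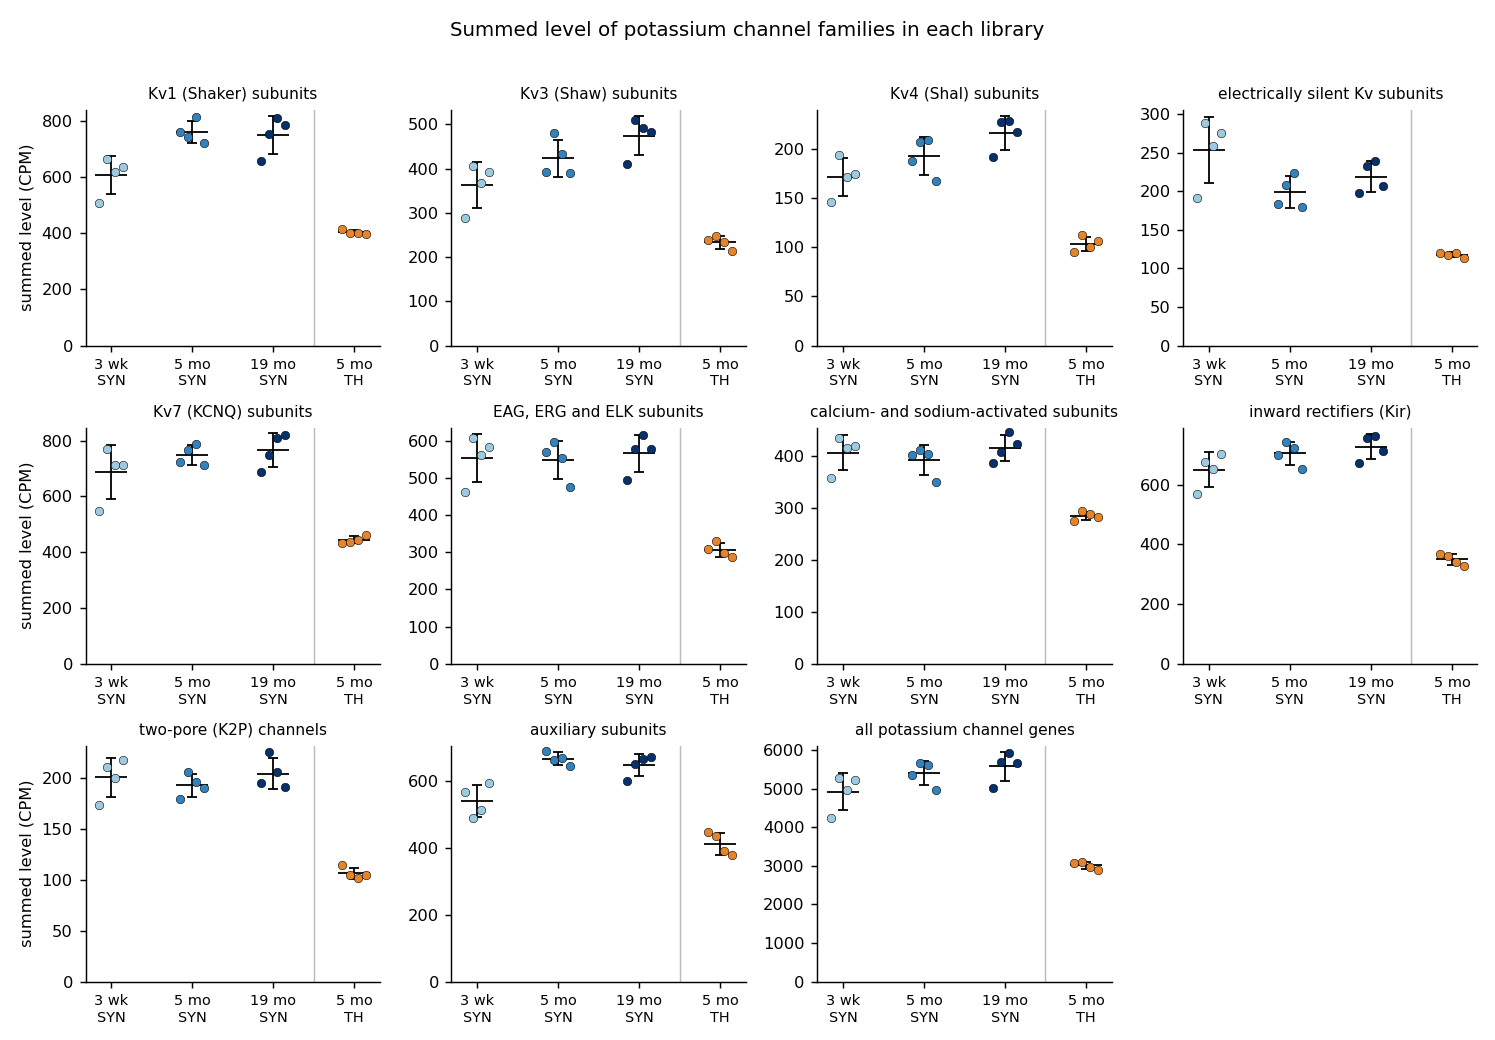
Summed level (CPM) of 10 potassium channel families, and of all 92 genes, in each library, with the mean and SD of each group (n = 4). The 12 SYN libraries of all ages lie above the 4 TH libraries, taken at 5 months alone, in the families shown. The sum of all genes was 4966 to 5652 CPM in 5 months SYN and 2895 to 3094 CPM in TH.

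The other 17 genes did not pass the filter on low counts and were not tested. Kcna7, Kcna10, Kcnj1, Kcnj5, Kcnj15, Kcnk7, Kcnk15, Kcnk16, Kcnk18, Kcnmb1, Kcnmb3, Kcne1, Kcne3, Kcnn4, Kcnq1 and Kcnv2 averaged under 1 CPM in both groups, and Kcnk16 had no count in any of the 16 libraries. Kcne2 is the exception and is described with the auxiliary subunits.

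**Figure D2:**
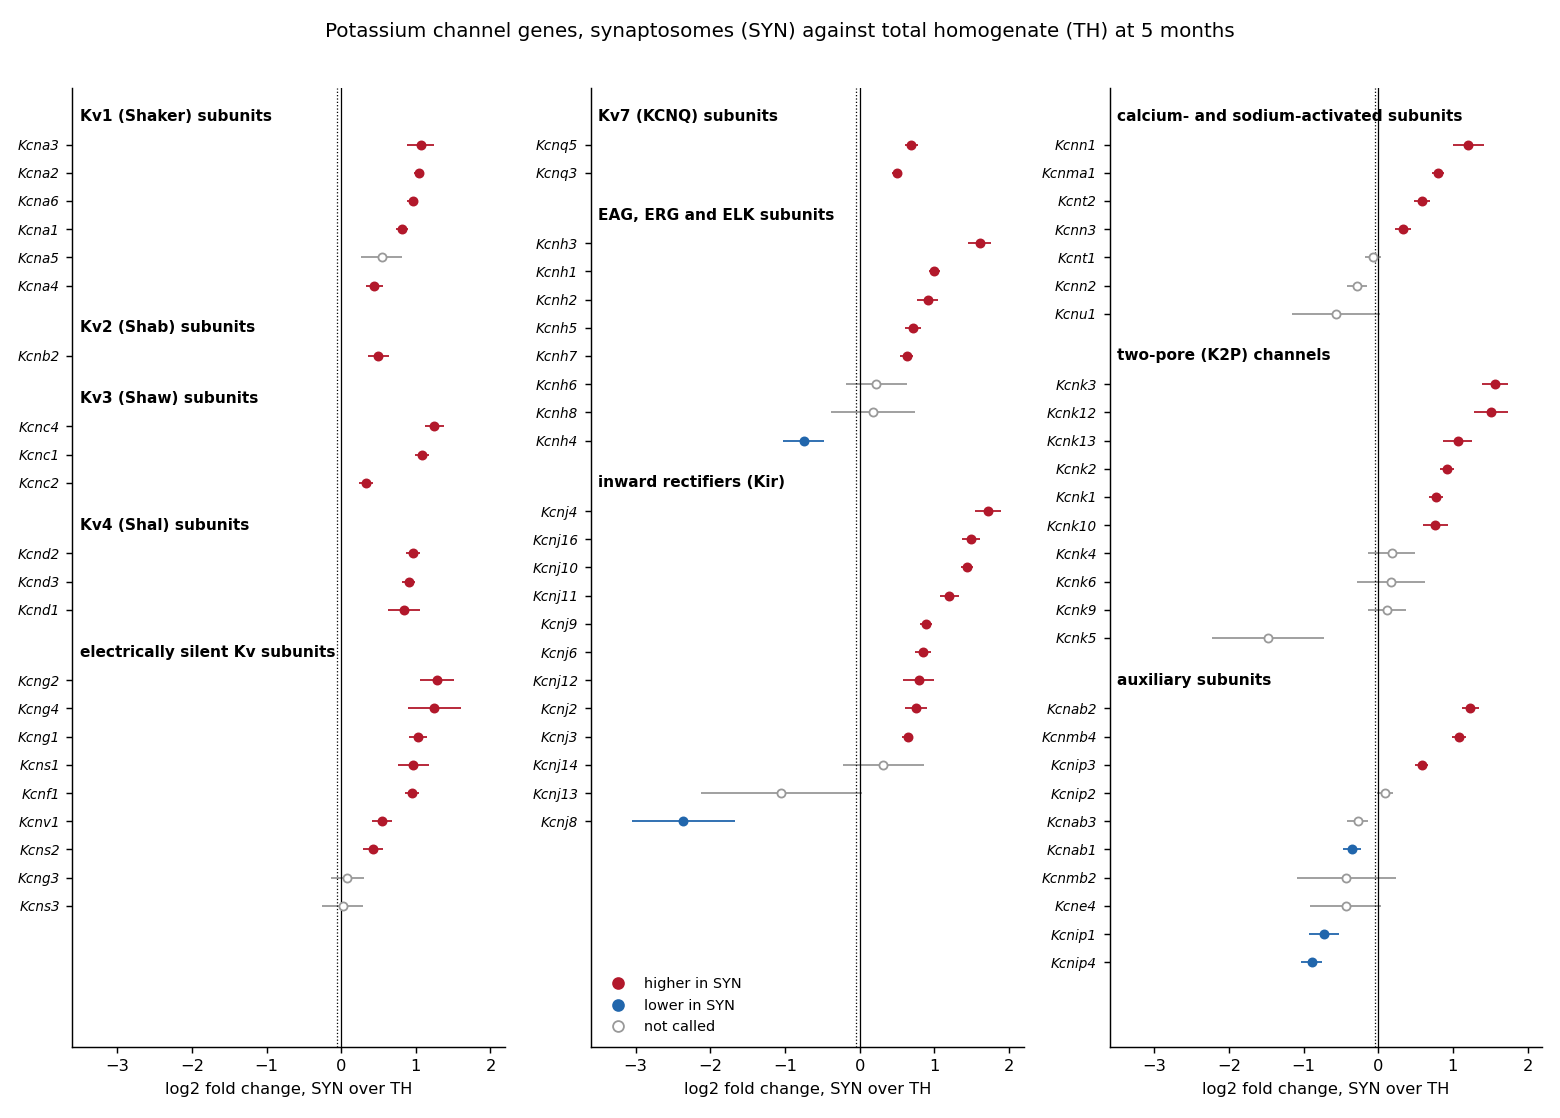
Log2 fold change of SYN over TH at 5 months for 71 of the tested potassium channel genes, one point per gene with its standard error, grouped by family. Red points were called higher in SYN (48 of those shown), blue points lower (5) and open points were not called (18), and the dotted line is the median of all genes tested (-0.05). The families of pore-forming subunits lie mostly to the right of the line, while the auxiliary subunits lie on both sides.

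Of the Kv1 (Shaker) subunits, which form the low-threshold channels of axons and terminals, 5 of 6 tested genes were higher in SYN and none was lower. Their summed level averaged 759 ± 39.9 CPM in SYN and 403 ± 8.90 CPM in TH (SD, n = 4 each). Kcna2 (ENSMUSG00000040724, chr3:107101146-107115005, plus strand of GRCm38), the main Kv1 subunit of axon initial segments and juxtaparanodes, had 509, 480.1, 531 and 484 CPM in the 4 SYN libraries and 258, 243, 248 and 248 CPM in the 4 TH libraries. Every SYN library lay above every TH library, and the TH values were nearly alike. The log2 fold change was 1.04 ± 0.07 (SE, adjusted p = 1.65e-08). Kcna1, whose product shares channels with that of Kcna2, had 111 to 131 CPM in SYN and 66.9 to 75.4 CPM in TH (log2 fold change 0.81). On the log2 scale, the fold change was 1.06 for Kcna3 and 0.96 for Kcna6. It was smaller for Kcna4, the rapidly inactivating member, at 0.45 ± 0.11 (SE, adjusted p = 0.00378). Kcna5 was not called, with 2.74 to 4.44 CPM in SYN and 2.13 to 3.20 CPM in TH. An antisense gene on the other strand covers 39.6% of the exon bases of Kcna6, and the strand setting of the counting is not given in the sources used here.

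Of the Kv2 (Shab) subunits, Kcnb2, a delayed rectifier subunit, had 63.4, 77.6, 67.4 and 55.8 CPM in SYN and 49.8, 60.5, 43.9 and 37.4 CPM in TH. The highest TH library exceeded the lowest SYN library, and Kcnb2 was called higher in SYN with a log2 fold change of 0.50 ± 0.14 (SE, adjusted p = 0.0102).

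The Kv3 (Shaw) subunits open at high voltages and let neurons fire fast, and Kcnc1, Kcnc2 and Kcnc4 were higher in SYN. Kcnc1, a subunit of fast-spiking interneurons, had 203, 246, 227 and 196 CPM in SYN and 111, 114, 107 and 90.8 CPM in TH, with no overlap and a log2 fold change of 1.08 ± 0.09 (SE, adjusted p = 2.92e-07). Kcnc4, whose channels inactivate, had 36.7, 47.1, 33.1 and 29.9 CPM in SYN and 16.4, 15.3, 16.6 and 14.96 CPM in TH, and its log2 fold change was 1.25 ± 0.13 (SE, adjusted p = 1.80e-06). Kcnc2, which is shared with Kcnc1 by fast-spiking interneurons, had 53.4 to 67.7 CPM in SYN, 48.4 to 56.4 CPM in TH and a log2 fold change of 0.34 ± 0.09 (SE, adjusted p = 0.00740). The ranges of Kcnc2 overlapped, and it was not called under upper-quartile scaling. The list of parvalbumin interneuron markers was Pvalb, Gad1, Gad2, Syt2, Erbb4, Tac1, Slc32a1 and Lhx6, not all of which are particular to these cells. These markers were mixed in the same libraries, with 3 of 8 higher and 2 lower in SYN. They summed to 374 to 455 CPM in SYN and 337 to 404 CPM in TH. Their part in the Kv3 values was not tested.
Kcnc2 has alternative 3′ coding exons, whose junctions are compared between ages further on. The coding bases at a cassette exon, read from the GENCODE vM21 transcripts on GRCm38, are shown because the choice of exon sets the C-terminal tail. In Kcnc2-203 the capitals mark the 104-base cassette exon at chr10:112456929-112457032 (plus strand), which Kcnc2-201 and other annotated transcripts skip, with 30 bases of each neighbouring exon in lower case.
Kcnc2-203: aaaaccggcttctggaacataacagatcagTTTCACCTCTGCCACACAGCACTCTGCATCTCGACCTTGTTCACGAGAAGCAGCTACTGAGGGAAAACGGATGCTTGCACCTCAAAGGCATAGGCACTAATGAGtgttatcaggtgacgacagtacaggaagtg
The length of the Kcnc2 cassette exon leaves a remainder of 2 when divided by 3, so its inclusion changes the reading frame of the exon that follows, and the annotated stop codon of Kcnc2-203 lies at chr10:112458607-112458609.

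The 3 Kv4 (Shal) subunits, which carry the A-type current of dendrites, moved by similar amounts. Kcnd2 had 96.7, 109.9, 114 and 81.6 CPM in SYN and 48.9, 54.3, 52.5 and 55.6 CPM in TH, and its log2 fold change was 0.96 ± 0.10 (SE, adjusted p = 1.57e-06). All 4 SYN values of Kcnd2 lay above the TH values. The log2 fold change was 0.90 for Kcnd3 and 0.84 for Kcnd1, the scarcest of the family with 10.8 to 13.1 CPM in SYN and 4.44 to 9.78 CPM in TH.

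The electrically silent subunits form no channel alone and join Kv2 subunits to modify them. Of 9 tested, 7 were higher in SYN and none was lower. Kcng2 had 7.72, 7.14, 8.89 and 5.59 CPM in SYN and 3.39, 3.78, 2.85 and 2.32 CPM in TH. The lowest SYN library lay above the highest TH library, and the log2 fold change was 1.28 ± 0.23 (SE, adjusted p = 0.000313). Kcnf1, the most abundant of them per kilobase, had 71.0, 80.9, 85.4 and 68.6 CPM in SYN and 38.2, 39.5, 45.2 and 39.2 CPM in TH, with a log2 fold change of 0.95 ± 0.09 (SE, adjusted p = 9.00e-07). Kcng1 (1.03), Kcng4 (1.25), Kcns1 (0.97), Kcnv1 (0.55) and Kcns2 (0.43) were the other genes called, with log2 fold changes in brackets. Kcns2 was not called under upper-quartile scaling (0.29, adjusted p = 0.0788). Kcng3 and Kcns3 were not called, and their log2 fold changes were 0.08 and 0.02. The Kcns3 libraries spanned 2.23 to 3.35 CPM in SYN and 2.62 to 3.20 CPM in TH.

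Of the Kv7 (KCNQ) subunits, Kcnq3 and Kcnq5 were higher in SYN. Both take part in the M current, a slow brake on repetitive firing that muscarinic receptors release. Kcnq3 had 248, 243, 249.7 and 251 CPM in SYN and 171, 169.5, 179 and 199 CPM in TH. The Kcnq3 groups did not overlap, and its log2 fold change was 0.50 ± 0.07 (SE, adjusted p = 3.53e-05). Kcnq5 had a log2 fold change of 0.69.

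In the EAG, ERG and ELK family, 5 of 8 genes were higher in SYN and 1 was lower. Kcnh3 (chr15:99224861-99242817, plus strand), an ELK subunit of forebrain neurons, had 122, 151, 132 and 112 CPM in SYN and 45.2, 55.0, 41.9 and 31.7 CPM in TH. Even the highest TH library held less than the lowest SYN library by more than the spread of either group, and the log2 fold change was 1.61 ± 0.15 (SE, adjusted p = 4.32e-06). Kcnh3 made up 43.6% of the family level per kilobase in SYN and 29.6% in TH. The EAG genes Kcnh1 and Kcnh5 had log2 fold changes of 1.00 and 0.71, and the ERG genes Kcnh2 and Kcnh7 had 0.91 and 0.63. Kcnh4, a scarce ELK gene, went the other way, at -0.75 ± 0.28 (SE, adjusted p = 0.0349) on the log2 scale, and had 1.87, 2.38, 3.64 and 4.05 CPM in SYN and 3.72, 5.42, 5.86 and 5.68 CPM in TH. The Kcnh4 groups overlapped, and leaving out replicate 1 or 2 of SYN or replicate 2, 3 or 4 of TH ended the call, at adjusted p between 0.0742 and 0.101. Kcnh6 and Kcnh8, both under 2 CPM in these libraries, were not called.
Kcnh7 has a 21-base microexon, shown because its inclusion was compared between ages. In Kcnh7-201 the capitals mark this exon at chr2:62845754-62845774 (minus strand), and 30 bases of each neighbouring coding exon are in lower case.
Kcnh7-201: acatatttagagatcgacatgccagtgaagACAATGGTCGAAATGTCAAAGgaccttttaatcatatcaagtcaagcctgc
The microexon is a multiple of 3 bases long, so Kcnh7-202, which lacks it, keeps the same reading frame.

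Among the calcium- and sodium-activated subunits, 4 of 7 tested genes were higher in SYN and none was lower. Kcnma1, the large-conductance calcium-activated channel of terminals and other compartments, had 233, 246, 234 and 186 CPM in SYN and 129, 131, 135 and 133 CPM in TH. The groups did not overlap, and the log2 fold change was 0.80 ± 0.08 (SE, adjusted p = 1.78e-06). The small-conductance channel genes differed from each other: Kcnn1 had a log2 fold change of 1.21 ± 0.21 (SE, adjusted p = 0.000226), Kcnn3 one of 0.33 ± 0.11 (SE, adjusted p = 0.0210), and Kcnn2 one of -0.28 that was not called (adjusted p = 0.0797). Kcnn2 was called lower under RLE scaling (-0.34, adjusted p = 0.0392), under upper-quartile scaling (-0.43, adjusted p = 0.0116), by DESeq2 (-0.34, adjusted p = 0.0365), in 1 fit of all 16 libraries (-0.30, adjusted p = 0.0473) and without replicate 1 or 3 of SYN. Kcnn3 was not called under upper-quartile scaling (0.19, adjusted p = 0.164) or without replicate 2 or 4 of SYN or replicate 1 of TH, where its log2 fold change was 0.27 to 0.30. Of the sodium-activated channel genes, Kcnt2 had a log2 fold change of 0.59 ± 0.11 (SE, adjusted p = 0.000522). Kcnt1, whose product can pair with that of Kcnt2, had 53.9, 63.5, 61.9 and 70.6 CPM in SYN and 68.1, 76.2, 70.1 and 55.9 CPM in TH, with overlapping ranges and no call. Kcnu1, known from sperm, was under 1 CPM on average in both groups and not called.

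Inward rectifiers held the gene with the highest log2 fold change among the 75. Of 12 tested, 9 were higher in SYN and 1 was lower. Kcnj4 (chr15:79483714-79505241, minus strand), a neuronal inward rectifier that binds postsynaptic scaffolds, had 109, 123, 100.4 and 96.2 CPM in SYN and 36.5, 43.1, 30.7 and 22.7 CPM in TH. The lowest SYN library was well above the highest TH library, and the log2 fold change was 1.72 ± 0.17 (SE, adjusted p = 1.32e-05). Its relatives Kcnj2 and Kcnj12 had log2 fold changes of 0.76 and 0.79. The G-protein-gated genes Kcnj3, Kcnj6 and Kcnj9, which mediate slow inhibition by neurotransmitters, had log2 fold changes of 0.64, 0.85 and 0.89, all called. For Kcnj3 a non-coding gene on the other strand covers 31.1% of the exon bases. Kcnj11, the pore of the ATP-sensitive channel of neurons, had 18.9, 15.2, 17.9 and 17.5 CPM in SYN and 7.66, 7.64, 7.73 and 8.003 CPM in TH, a log2 fold change of 1.20 ± 0.13 (SE, adjusted p = 2.54e-06). Kcnj14 was near 1 CPM in both groups and not called.

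Kcnj10 and Kcnj16, the astrocytic pair whose subunits combine in the channels that take up extracellular potassium, were also among the larger differences. Kcnj10 had 153, 167, 179 and 145 CPM in SYN and 60.3, 62.9, 61.8 and 58.6 CPM in TH. Its TH libraries were close together, all SYN libraries lay far above them, and the log2 fold change of 1.44 ± 0.08 (SE, adjusted p = 3.91e-09) had the smallest adjusted p of the 75 genes. Kcnj16 had 51.5, 61.1, 46.1 and 42.6 CPM in SYN and 19.4, 19.1, 18.8 and 16.1 CPM in TH, without overlap, and a log2 fold change of 1.49 ± 0.12 (SE, adjusted p = 1.05e-07). Astrocyte markers moved with them: 15 of 16 were higher in SYN, none was at 0, and the summed level was 8749 to 9997 CPM in SYN and 3930 to 4635 CPM in TH. Their part in the Kcnj10 and Kcnj16 values was not tested.

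Kcnj8, the pore of the ATP-sensitive channel of vascular mural cells, was lower in SYN. It had 0, 0.0743, 0.323 and 0.298 CPM in SYN and 0.875, 1.05, 1.05 and 0.874 CPM in TH, from 10 counts in all SYN libraries together and 98 in all TH libraries. The groups did not overlap, and the log2 fold change was -2.36 ± 0.69 (SE, adjusted p = 0.00987). Abcc9, the sulfonylurea receptor that pairs with Kcnj8, was lower too, with a log2 fold change of -1.63 ± 0.26 (SE, adjusted p = 0.000116). Of 10 mural cell markers 6 were lower and 1 higher in SYN, none was at 0, and they summed to 57.2 to 65.6 CPM in SYN and 99.4 to 176 CPM in TH. The part of mural and endothelial RNA in the Kcnj8 value was not tested. Kcnj13, an inward rectifier of the choroid plexus, had 2.65, 2.23, 2.51 and 4.11 CPM in SYN and 1.70, 0.582, 2.499 and 19.7 CPM in TH. Replicate 4 of TH stood far above the other libraries, Kcnj13 was not called, and the same library held the choroid plexus marker sum of 3967 CPM. None of the 7 tested choroid plexus markers was called between SYN and TH, and none was at 0. Of the exon bases of Kcnj13, 49.1% overlap Gigyf2 on the other strand.

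Of the 10 tested K2P channels, which leak potassium at rest, 6 were higher in SYN and none was lower. Kcnk1, the most abundant per kilobase, had 51.2, 57.2, 55.9 and 63.6 CPM in SYN and 34.8, 32.4, 30.9 and 38.7 CPM in TH, a log2 fold change of 0.77 ± 0.10 (SE, adjusted p = 1.18e-05). The groups of Kcnk1 were clearly apart. Kcnk3, an acid-sensitive leak channel, had 24.6, 21.3, 26.6 and 18.9 CPM in SYN and 9.57, 9.24, 6.52 and 6.36 CPM in TH. Its log2 fold change was 1.56 ± 0.17 (SE, adjusted p = 2.72e-06), while the related Kcnk9 was not called (3.82 to 9.96 CPM in SYN and 5.49 to 8.55 CPM in TH). Kcnk12, a close relative of Kcnk13 in sequence, had 7.56, 9.59, 6.06 and 11.3 CPM in SYN and 2.46, 3.45, 3.20 and 3.30 CPM in TH, without overlap and with a log2 fold change of 1.51 ± 0.23 (SE, adjusted p = 6.22e-05). The stretch-sensitive channel genes Kcnk2 and Kcnk10 had log2 fold changes of 0.92 and 0.77. Kcnk4, the third stretch-sensitive gene, shares 13.1% of its exon bases with Catsperz on the same strand and was not called. Kcnk5 and Kcnk6 were not called either, at levels of at most 1.65 CPM in every library of the comparison.

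Kcnk13, a leak channel known from microglia, had 12.6, 15.4, 16.9 and 12.8 CPM in SYN and 7.77, 8.58, 7.34 and 4.61 CPM in TH. No library of either group crossed into the range of the other, and the log2 fold change was 1.06 ± 0.19 (SE, adjusted p = 0.000338). All 12 microglial markers were higher in SYN, none was at 0, and their summed level was 236 to 281 CPM in SYN and 113 to 123 CPM in TH. Their part in the Kcnk13 value was not tested.

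The auxiliary subunits, which bind pore-forming subunits and change their gating or transport, were the one family with as many genes lower as higher, 3 each of 10 tested, and a median log2 fold change of -0.31. The Kvβ genes, whose products attach to the cytoplasmic side of Kv1 channels, split 3 ways. Kcnab2 (chr4:152390742-152477871, minus strand) had 434, 414, 421 and 372 CPM in SYN and 216, 190.3, 168 and 139.9 CPM in TH. Every SYN library was above every TH library, and the log2 fold change was 1.24 ± 0.12 (SE, adjusted p = 1.02e-06). Kcnab1 had 25.1, 28.0, 31.7 and 39.5 CPM in SYN and 39.5, 39.1, 39.2 and 45.0 CPM in TH, a log2 fold change of -0.35 ± 0.13 (SE, adjusted p = 0.0297). The highest SYN library of Kcnab1 reached the TH range, and the call was lost without replicate 1, 2 or 3 of SYN or without replicate 1 or 4 of TH, with adjusted p of 0.0505 to 0.108. Kcnab3 had 20.4, 18.3, 17.5 and 19.3 CPM in SYN and 25.5, 29.3, 21.1 and 17.9 CPM in TH. The ranges of Kcnab3 overlapped and it was not called (-0.28, adjusted p = 0.132). It was called lower under upper-quartile scaling (-0.42, adjusted p = 0.0246) and without replicate 4 of TH (-0.39, adjusted p = 0.0229).

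The KChIP genes, calcium-binding partners of Kv4 channels, also differed in direction. Kcnip4 had 10.8, 12.6, 11.9 and 15.9 CPM in SYN and 24.2, 22.6, 23.3 and 27.8 CPM in TH, and Kcnip1, a member found in interneurons, had 3.28, 5.43, 4.61 and 5.12 CPM in SYN and 7.99, 8.66, 8.39 and 6.29 CPM in TH. In neither gene did a SYN library reach the TH range. The log2 fold change was -0.89 ± 0.14 (SE, adjusted p = 7.16e-05) for Kcnip4 and -0.73 ± 0.20 (SE, adjusted p = 0.00822) for Kcnip1. Kcnip3, which is also a transcriptional repressor and a partner of presenilins, was higher in SYN with 108, 104, 104 and 110.0 CPM in SYN and 79.5, 78.4, 69.5 and 64.8 CPM in TH, a log2 fold change of 0.58 ± 0.08 (SE, adjusted p = 4.43e-05). Kcnip2 had a log2 fold change of 0.09 and was not called. Thus the 3 pore-forming Kv4 genes were all called higher, whereas of the 4 KChIP genes 1 was higher, 2 were lower and 1 was not called.
Kcnip3 has a pair of acceptor sites 4 bases apart, and the coding bases across this joint are shown because the choice between the sites was compared between ages. The capitals in Kcnip3-203 mark the 4 bases at chr2:127465975-127465978 (minus strand) that Kcnip3-201 leaves out.
Kcnip3-203: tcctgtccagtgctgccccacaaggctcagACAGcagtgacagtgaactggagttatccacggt
Kcnip3-201: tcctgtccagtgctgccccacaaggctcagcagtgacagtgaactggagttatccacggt
Both transcripts are annotated as coding over all the bases shown and end at the same stop codon, chr2:127458341-127458343. The 4 bases leave a remainder of 1 when divided by 3, so the transcripts cannot share a reading frame on both sides of the joint.

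Kcnmb4, the neuronal β subunit of the large-conductance calcium-activated channel, had 48.3, 43.4, 44.8 and 38.6 CPM in SYN and 20.8, 22, 22.2 and 19.8 CPM in TH, without overlap, and a log2 fold change of 1.08 ± 0.10 (SE, adjusted p = 4.11e-07). Antisense genes cover 20.8% and 10.7% of its exon bases. Kcnmb2 and Kcne4, which averaged about 1 CPM in both groups, were not called. Kcne2, a small subunit of the choroid plexus and other epithelia, did not pass the filter on low counts and was not tested. It had 0.312, 0.0743, 0.566 and 5.59 CPM in SYN and 0, 1.45, 0.0781 and 23.5 CPM in TH, so that replicate 4 of each group stood above the other 3, as it did for the choroid plexus marker sum.

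Proteins that bind or anchor these channels but carry other names formed a separate list of 26 partners, of which 23 were tested, 15 were higher in SYN and 3 lower, with a median log2 fold change of 0.42. Lingo1, a membrane partner of the large-conductance calcium-activated channel, averaged 248 ± 34.0 CPM in SYN and 95.5 ± 7.59 CPM in TH (SD, n = 4 each), a log2 fold change of 1.41 ± 0.10 (SE, adjusted p = 2.54e-08). Cntnap1, the paranodal protein that keeps Kv1 channels in place along myelinated axons, averaged 145 ± 18.1 CPM in SYN and 62.5 ± 3.51 CPM in TH, a log2 fold change of 1.25 ± 0.09 (SE, adjusted p = 4.17e-08). Dlg4, the postsynaptic scaffold that binds Kv1 and inward rectifier channels, averaged 591 ± 41.5 CPM in SYN and 268 ± 39.7 CPM in TH, a log2 fold change of 1.18 ± 0.10 (SE, adjusted p = 3.07e-07). These 3 partners moved with the pore-forming genes. Amigo1, an auxiliary protein of Kv2 channels, had a log2 fold change of 0.90 ± 0.09 (SE, adjusted p = 2.04e-06). Besides Abcc9, the partners lower in SYN were Vapa, which tethers Kv2 channels to the endoplasmic reticulum (log2 fold change -0.47), and Crbn, a partner of Kcnma1 (log2 fold change -0.44).

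**Figure D3:**
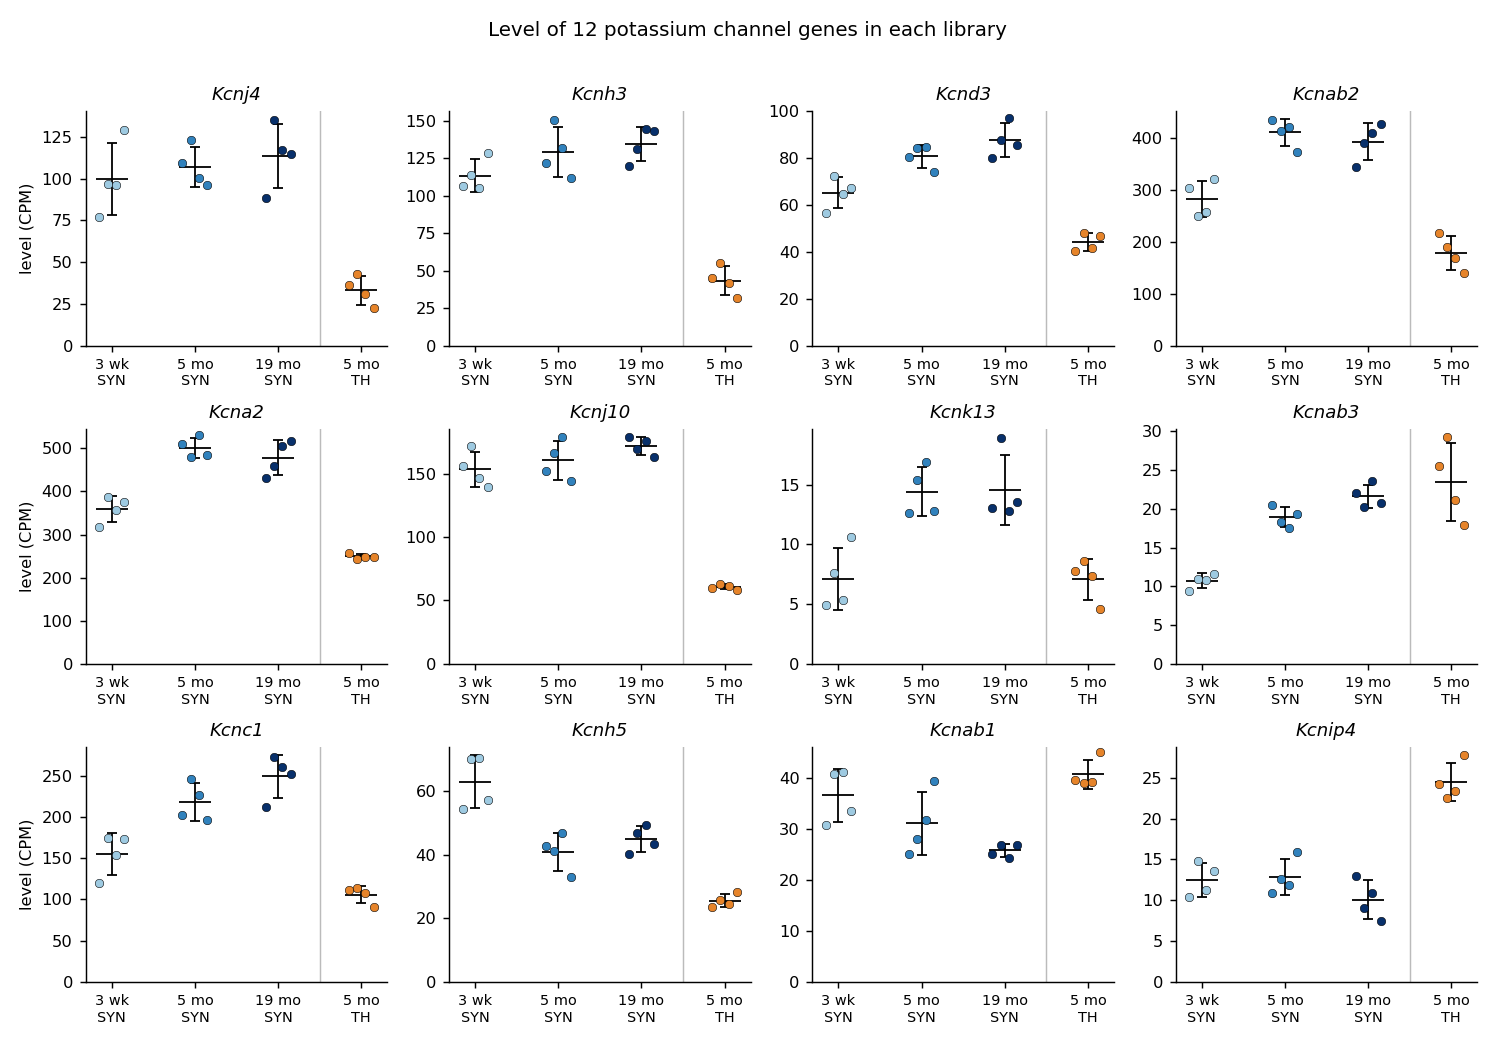
Level (CPM) of 12 potassium channel genes in each of the 16 libraries, with the mean and SD of each group (n = 4), for SYN at 3 weeks, 5 months and 19 months and for TH at 5 months. Kcnj4, Kcnh3 and Kcnj10 in SYN of every age lie well above TH, which was taken at 5 months alone. Kcnab1 and Kcnip4 lie lower in 5 months SYN than in TH, and Kcnab3 and Kcnc1 are higher at 5 and 19 months than at 3 weeks.

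Levels of different genes were compared per kilobase of exon, as CPM divided by the exon length given in the count table. In 5 months SYN the highest genes included Kcnab2 at 73.6 ± 4.77 CPM per kilobase (SD, n = 4), Kcnj4 at 49.9 ± 5.54, Kcna2 at 42.1 ± 1.99 and Kcnh3 at 36.1 ± 4.63. Kcnab2 stood above the other genes in each library, Kcnj4 lay just above Kcna2 without overlap, and the ranges of Kcna2 and Kcnh3 overlapped. Kcnma1 (32.4 ± 3.79), Kcnj3 (31.8 ± 1.28), Kcnip3 (30.1 ± 0.854) and Kcnj10 (29.7 ± 2.81) came next and did not differ beyond their spread. In TH the order began with Kcnab2 at 32.0 ± 5.80 CPM per kilobase, then Kcna2 at 20.9 ± 0.536, Kcnj3 at 20.9 ± 1.35, Kcnip3 at 20.6 ± 2.01, and Kcnma1 at 19.0 ± 0.417. Kcnj4 followed lower down, at 15.5 ± 4.03. Kcnj4 thus held rank 2 in SYN and rank 7 in TH. At 3 weeks Kcnab2 (50.6 ± 6.22) and Kcnj4 (46.5 ± 10.0) overlapped in range, and at 19 months Kcnab2 (70.4 ± 6.33) and Kcnj4 (53.0 ± 8.92) still overlapped slightly.

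The second set of comparisons asked how the synaptosomal levels differed between ages. The summed level of the 92 genes had a median of 5098 CPM at 3 weeks, 5480 CPM at 5 months and 5677 CPM at 19 months, with overlapping ranges of 4231 to 5266, 4966 to 5652 and 5022 to 5911 CPM. Of 72 tested genes, 14 were higher and 8 lower at 5 months than at 3 weeks, which is 30.6% called against 24.6% of all 15344 genes tested (13.3% higher and 11.3% lower). Without both replicate 4 of 5 months SYN and replicate 1 of 19 months SYN, 17 were higher and 6 lower, against 1827 and 1561 of all 15470 genes. The count of lower genes depended on single libraries: it was 13 without replicate 1 of 3 weeks, 4 without replicate 2 of 3 weeks, replicate 3 of 3 weeks or replicate 1 of 5 months, and 5 without replicate 4 of 3 weeks or replicate 3 of 5 months. At 19 months against 3 weeks, 16 genes were higher and 2 lower, which is 25% called against 19.4% of all genes (10.0% higher and 9.44% lower). Without these 2 libraries, 19 were higher and 2 lower, against 1602 and 1336 of all 15470 genes. Leaving out replicate 3 of 19 months lowered the 16 to 9, and leaving out replicate 1 of 3 weeks raised the 2 to 7 and lowered the 16 to 12. The median log2 fold change of the 72 genes was 0.04 at 5 months and 0.11 at 19 months over 3 weeks, against 0.00 over all genes in both comparisons, which share the 3 weeks libraries. The libraries did not overlap in 20 genes at 5 months against 3 weeks (14 higher, 6 lower, against 22.8% of all genes) and in 15 at 19 months against 3 weeks (12 higher, 3 lower, against 22.9% of all genes).

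Markers of other cell types and compartments moved over the same ages. Of 14 myelin markers, 11 were lower at 5 months and 11 at 19 months than at 3 weeks, with sums of 7577 to 10721 CPM at 3 weeks, 2406 to 2969 CPM at 5 months and 2390 to 3353 CPM at 19 months. Of 9 tested nuclear RNAs, 6 were higher at 5 months and 1 at 19 months, with sums of 905 to 1222 CPM at 3 weeks, 1648 to 6957 CPM at 5 months and 1714 to 2623 CPM at 19 months. Of 10 oligodendrocyte precursor markers, 9 were lower at 5 months and 7 at 19 months, with sums of 635 to 793 CPM at 3 weeks, 329 to 371 CPM at 5 months and 286 to 354 CPM at 19 months. Of 10 excitatory neuron markers, 1 was higher and 2 lower at 5 months, and 1 was higher and 5 lower at 19 months, with sums of 6830 to 7140 CPM at 3 weeks, 6623 to 7846 CPM at 5 months and 6009 to 7173 CPM at 19 months. None of these genes was at 0 in any age group, and their part in the values of the potassium channel genes was not tested.

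**Figure D4:**
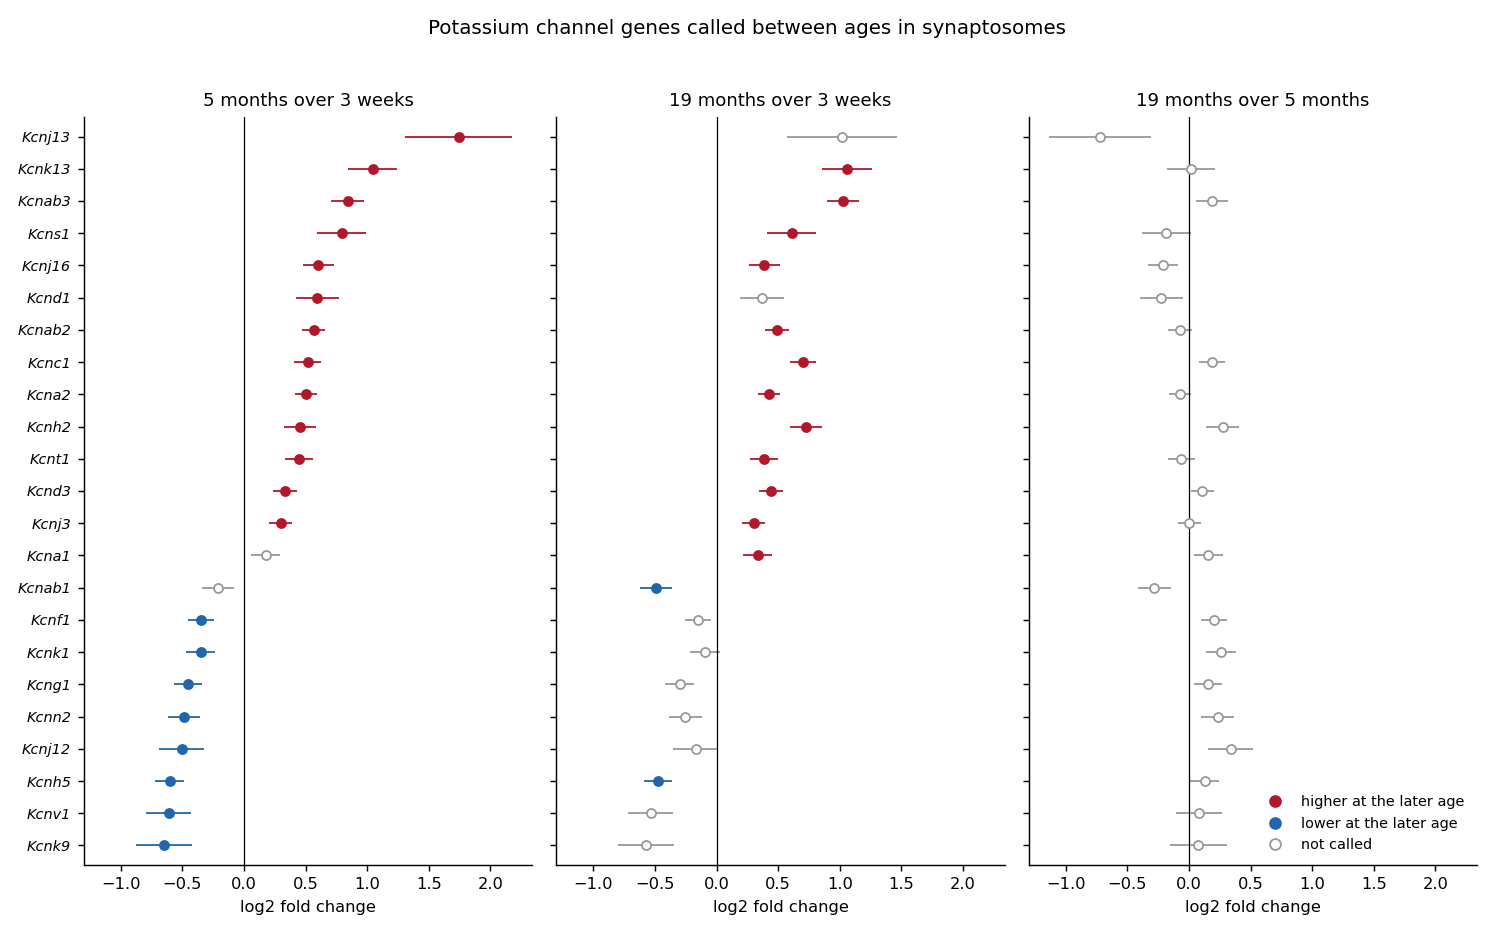
Log2 fold change with standard error for 23 potassium channel genes with a call between ages, for 5 months over 3 weeks, 19 months over 3 weeks and 19 months over 5 months in SYN. Filled points were called, red where higher and blue where lower at the later age, and open points were not. No filled point lies in the panel of 19 months over 5 months, and both comparisons with 3 weeks use the same 3 weeks libraries.

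Among the Kv pore-forming subunits, the older ages had more Kcna2, Kcnc1 and Kcnd3 RNA than 3 weeks. Kcna2 had 318, 388, 358 and 375 CPM at 3 weeks, 509, 480.1, 531 and 484 CPM at 5 months and 431, 459.7, 506 and 517 CPM at 19 months. Each library of the older ages lay above all 4 of 3 weeks. The log2 fold change over 3 weeks was 0.50 ± 0.09 (SE, adjusted p = 0.000136) at 5 months and 0.43 ± 0.09 (SE, adjusted p = 0.000942) at 19 months. Kcnc1 had 119.6, 174, 153 and 173 CPM at 3 weeks, 203, 246, 227 and 196 CPM at 5 months and 213, 273, 261 and 252 CPM at 19 months. The 3 weeks libraries were again the lowest, and the log2 fold change was 0.52 ± 0.11 (SE, adjusted p = 0.000881) at 5 months and 0.70 ± 0.11 (SE, adjusted p = 3.36e-05) at 19 months. Kcnd3 had 56.5, 72.3, 64.7 and 67.2 CPM at 3 weeks, 80.3, 84.2, 84.6 and 74.1 CPM at 5 months and 80.1, 87.8, 97.3 and 85.6 CPM at 19 months, and its log2 fold change was 0.33 ± 0.09 (SE, adjusted p = 0.0109) at 5 months and 0.44 ± 0.10 (SE, adjusted p = 0.00131) at 19 months. Kcnd1 had 10.8, 13.1, 10.8 and 12.2 CPM at 5 months and 6.29, 7.71, 7.13 and 10.4 CPM at 3 weeks, a log2 fold change of 0.60 ± 0.18 (SE, adjusted p = 0.0132) that was not called without replicate 3 of 3 weeks (adjusted p = 0.0529). At 19 months Kcna1 was called higher than at 3 weeks, with a log2 fold change of 0.33, and lost the call without several of the single libraries. Kcnq3 was not called in either comparison, with log2 fold changes of -0.22 at 5 months and -0.24 at 19 months. It was called lower in both without replicate 1 of 3 weeks, and at 19 months also by DESeq2, with the replicate block and in 1 fit of all 16 libraries, at adjusted p between 0.00957 and 0.0488.

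The same list of parvalbumin interneuron markers, not all particular to these cells, is given beside these values, since Kcnc1, Kcnc2, Kcnab3 and Kcns1 are known from such cells. At 5 months 2 of 8 markers were higher and 1 lower than at 3 weeks, and at 19 months 3 were higher and none lower. Their summed level was 343 to 417 CPM at 3 weeks, 374 to 455 CPM at 5 months and 424 to 485 CPM at 19 months, and none was at 0. Their part in the Kcnc1, Kcnc2, Kcnab3 and Kcns1 values was not tested. Unlike Kcnc1, Kcnc2 was not called in either comparison with 3 weeks. It had 64.6 to 82.99 CPM at 3 weeks, 53.4 to 67.7 CPM at 5 months and 61.8 to 78.4 CPM at 19 months. Without replicate 1 of 3 weeks, Kcnc2 was called lower at 5 months. Kcns1, a silent subunit, had 7.51, 9.61, 6.34 and 9.85 CPM at 3 weeks, 11.9, 11.7, 16.2 and 16.8 CPM at 5 months and 8.78, 15.3, 16.1 and 9.95 CPM at 19 months. All 5 months libraries exceeded those of 3 weeks, whereas some 19 months libraries did not, and the log2 fold change was 0.79 ± 0.20 (SE, adjusted p = 0.00416) at 5 months and 0.61 ± 0.20 (SE, adjusted p = 0.0317) at 19 months. The 19 months call of Kcns1 was lost without replicate 1 or 3 of 3 weeks or replicate 2 or 3 of 19 months.

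The other silent subunits that were called were lower at 5 months. Kcnv1 (-0.61), Kcng1 (-0.46) and Kcnf1 (-0.35) were lower at 5 months than at 3 weeks by these log2 fold changes. The ranges of all 3 genes overlapped between the ages, and Kcnv1 lost the call without replicate 2 or 3 of 3 weeks or replicate 1 of 5 months, as did Kcnf1 without replicate 4 of 3 weeks or replicate 4 of 5 months. At 19 months against 3 weeks none of the 3 was called, but Kcnv1 was close to the threshold, with a log2 fold change of -0.53 and an adjusted p of 0.0508. It was called lower at 19 months under RLE scaling, with no filter on low counts, with mitochondrial genes left out, by DESeq2, with the replicate block, in 1 fit of all 16 libraries and without replicate 1 of 3 weeks or replicate 3 or 4 of 5 months, at adjusted p between 4.44e-05 and 0.0496. Kcng1 (-0.30, adjusted p = 0.0638) was called lower at 19 months with the replicate block (adjusted p = 0.0371) and without replicate 1 of 3 weeks or replicate 2 of 19 months.

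In the EAG, ERG and ELK family an ERG gene and an EAG gene moved in opposite directions. Kcnh2, the ERG channel gene of heart and brain, had 19.7, 25.1, 17.8 and 25.3 CPM at 3 weeks, 28.8, 35.4, 28.6 and 25.6 CPM at 5 months and 30.4, 36.9, 41.5 and 34.9 CPM at 19 months. Its log2 fold change over 3 weeks was 0.45 ± 0.13 (SE, adjusted p = 0.0123) at 5 months and 0.73 ± 0.13 (SE, adjusted p = 0.000228) at 19 months, and the groups did not overlap in either comparison. The 5 months call was lost without replicate 3 of 3 weeks (0.36, adjusted p = 0.0741) or replicate 2 of 5 months (0.36, adjusted p = 0.0638). Kcnh5, an EAG gene, had 54.4, 70.3, 70.3 and 57.3 CPM at 3 weeks, 42.7, 41.0, 46.9 and 32.9 CPM at 5 months and 40.2, 46.8, 49.4 and 43.2 CPM at 19 months. Here every 3 weeks library was above every library of the older ages. The log2 fold change was -0.60 ± 0.11 (SE, adjusted p = 0.000313) at 5 months and -0.48 ± 0.12 (SE, adjusted p = 0.00367) at 19 months. Both calls of Kcnh5 held without both replicate 4 of 5 months and replicate 1 of 19 months, with log2 fold changes of -0.51 and -0.42.

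Of the calcium- and sodium-activated subunits, Kcnt1 was higher at 5 months (0.44 ± 0.11 (SE, adjusted p = 0.00470)) and at 19 months (0.38 ± 0.11 (SE, adjusted p = 0.0170)) than at 3 weeks on the log2 scale, with ranges that overlapped. Without replicate 3 of 19 months Kcnt1 was not called at 19 months. Kcnn2 had 23.7, 17.8, 23.7 and 17.5 CPM at 5 months and 31.8, 30.8, 31.1 and 23.8 CPM at 3 weeks. The lowest 3 weeks library lay just above the highest 5 months library, and the log2 fold change was -0.49 ± 0.13 (SE, adjusted p = 0.00733).

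Among the inward rectifiers, Kcnj16 had 41.7, 34.5, 26.9 and 32.1 CPM at 3 weeks, 51.5, 61.1, 46.1 and 42.6 CPM at 5 months and 46.5, 36.9, 46.3 and 45.3 CPM at 19 months. Its 5 months values were all above those of 3 weeks, the 19 months values overlapped them, and the log2 fold change was 0.60 ± 0.13 (SE, adjusted p = 0.000835) at 5 months and 0.39 ± 0.13 (SE, adjusted p = 0.0296) at 19 months. The 19 months call of Kcnj16 was lost without replicate 3 or 4 of 3 weeks or replicate 1, 3 or 4 of 19 months. Its partner Kcnj10 was not called, with log2 fold changes of 0.09 and 0.18. Astrocyte markers were mixed, with 2 of 16 higher and 3 lower at 5 months and also at 19 months, and sums of 8765 to 12280 CPM at 3 weeks, 8749 to 9997 CPM at 5 months and 8392 to 10206 CPM at 19 months. Kcnj3 had log2 fold changes of 0.30 and 0.30, both called. The 5 months call of Kcnj3 was lost without replicate 2 of 5 months (0.28, adjusted p = 0.0579), and its 19 months call without replicate 2, 3 or 4 of 19 months. Kcnj12 was lower at 5 months (-0.51 ± 0.18 (SE, adjusted p = 0.0410)), with overlapping ranges and a call that was lost without any of 6 single libraries. Kcnj13 had 2.65, 2.23, 2.51 and 4.11 CPM at 5 months and 0.979, 0.261, 1.70 and 0.492 CPM at 3 weeks, a log2 fold change of 1.74 ± 0.43 (SE, adjusted p = 0.00388). Although the groups did not overlap, Kcnj13 was not called when all 16 libraries shared a fit (1.73, adjusted p = 0.223) and was called without both replicate 4 of 5 months and replicate 1 of 19 months (1.51, adjusted p = 0.0216). Choroid plexus markers summed to 208 to 979 CPM at 5 months and 212 to 345 CPM at 3 weeks, 2 of 8 were called higher and none was at 0, and their part in the Kcnj13 value was not tested.

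Kcnk13 had the smallest adjusted p among the K2P channels in both comparisons with 3 weeks, with 4.897, 7.58, 5.32 and 10.6 CPM at 3 weeks, 12.6, 15.4, 16.9 and 12.8 CPM at 5 months and 13.0, 19.0, 12.8 and 13.6 CPM at 19 months. All 8 libraries of the older ages lay above the 3 weeks range, and the log2 fold change was 1.04 ± 0.20 (SE, adjusted p = 0.000384) at 5 months and 1.06 ± 0.20 (SE, adjusted p = 0.000414) at 19 months. Of 12 microglial markers, 5 were higher and none lower at 5 months, and 8 were higher and none lower at 19 months. They summed to 169 to 250 CPM at 3 weeks, 236 to 281 CPM at 5 months and 295 to 452 CPM at 19 months, none was at 0, and their part in the Kcnk13 value was not tested. Kcnk15, which is not known to form a working channel alone, had 0.543, 1.59, 1.00 and 1.37 CPM at 19 months and 0, 0.131, 0.113 and 0.0703 CPM at 3 weeks, from 55 and 5 counts over the 4 libraries of each age. The groups did not overlap, and the log2 fold change was 3.64 ± 0.90 (SE, adjusted p = 0.00464) on these few counts, too few for a filter of 1 CPM in 4 libraries. Kcnk9 (-0.65) and Kcnk1 (-0.35) were lower at 5 months than at 3 weeks by these log2 fold changes. Both genes had overlapping ranges and lost the call without several single libraries.

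The auxiliary subunits held the smallest adjusted p of both comparisons with 3 weeks. Kcnab3 had 9.39, 10.98, 10.9 and 11.6 CPM at 3 weeks, 20.4, 18.3, 17.5 and 19.3 CPM at 5 months and 21.99, 20.2, 23.6 and 20.8 CPM at 19 months. No library of the older ages came near the 3 weeks range, and the log2 fold change was 0.84 ± 0.13 (SE, adjusted p = 3.04e-05) at 5 months and 1.03 ± 0.13 (SE, adjusted p = 2.21e-06) at 19 months. Kcnab2 had 304, 249, 257 and 319.9 CPM at 3 weeks, 434, 414, 421 and 372 CPM at 5 months and 344, 391, 409 and 427 CPM at 19 months, again with all older libraries above those of 3 weeks. The log2 fold change of Kcnab2 was 0.56 ± 0.09 (SE, adjusted p = 7.54e-05) at 5 months and 0.49 ± 0.09 (SE, adjusted p = 0.000437) at 19 months. Kcnab1, in contrast, had 25.2, 26.9, 24.2 and 26.8 CPM at 19 months and 30.7, 40.8, 41.2 and 33.5 CPM at 3 weeks, without overlap, a log2 fold change of -0.49 ± 0.13 (SE, adjusted p = 0.00819). At 5 months Kcnab1 was not called (-0.21, adjusted p = 0.254). No KChIP gene was called in either comparison with 3 weeks.

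Of the 23 tested partners, 1 was higher and 3 were lower at 5 months than at 3 weeks, and 2 were higher and 4 lower at 19 months. Vapa had a log2 fold change of -0.70 ± 0.11 (SE, adjusted p = 2.34e-05) at 5 months and -0.55 ± 0.11 (SE, adjusted p = 0.000457) at 19 months. Akap5, which anchors kinases at Kv7 channels, averaged 110.0 ± 10.02 CPM at 19 months and 172 ± 15.3 CPM at 3 weeks (SD, n = 4 each), a log2 fold change of -0.63 ± 0.09 (SE, adjusted p = 1.74e-05). Lrrc55, an auxiliary subunit of Kcnma1, was higher at 19 months by a log2 fold change of 0.80 ± 0.19 (SE, adjusted p = 0.00517). At 5 months Lingo1 had a log2 fold change of -0.51 ± 0.11 (SE, adjusted p = 0.00153), Dlg2 one of -0.29 ± 0.09 (SE, adjusted p = 0.0256) and Abcc9 one of 1.21 ± 0.41 (SE, adjusted p = 0.0300). At 19 months Amigo1 was higher, with a log2 fold change of 0.48 ± 0.12 (SE, adjusted p = 0.00591).

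Between 5 and 19 months no potassium channel gene was called by edgeR, against 0.300% of all genes, or by DESeq2, which called 114 genes higher and 196 lower among all 15344 tested. At an unadjusted p under 0.05, 6 of the 72 were reached with edgeR and 3 with DESeq2. The share of all genes at that unadjusted threshold was not computed, so these counts are not read as a difference. The smallest adjusted p was 0.197, for Kcnk15 (log2 fold change 2.21). The median log2 fold change was 0.09, against 0.00 over all genes. The libraries did not overlap in 3 genes (Kcnip1 and Kcnf1 higher, Kcnj13 lower), against 8.16% of all genes. Kcnip1 had 9.59, 5.45, 6.21 and 5.57 CPM at 19 months and 3.28, 5.43, 4.61 and 5.12 CPM at 5 months, so its groups were adjacent, and its log2 fold change of 0.52 had an adjusted p of 0.307. Kcnk15 was called without replicate 2 of 5 months. Of the partners, Akap5 was lower at 19 months than at 5 months, with a log2 fold change of -0.44 ± 0.09 (SE, adjusted p = 0.0350).

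The third set of data concerned splicing between ages in SYN. LeafCutter groups introns that share a splice site into clusters and gives each intron's usage, the share of the cluster's junction reads that span it. The authors' deposited table gave 34 tested clusters in 17 potassium channel genes for 5 months against 3 weeks, of which 2 were called at an adjusted p under 0.05 (5.88%, against 6.61% of all clusters). The authors' deposited table for 19 months against 5 months had 1 called of 35 in 18 genes (2.86%, against 0.768%), and that for 19 months against 3 weeks had 2 of 35 in 19 genes (5.71%, against 4.81%). The share called was thus close to that of all clusters in the comparisons with 3 weeks. With a usage change of at least 0.1 also required, the authors' deposited tables gave 2 of 34, 0 of 35 and 2 of 35 calls in the same order (4.59%, 0.545% and 3.33% of all clusters), and at an adjusted p under 0.01 they gave none (2.00%, 0.0248% and 1.20%). The usages are the authors' estimates for each age group and carry no error per library.

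In Kcna2 the authors' deposited table called a cluster of leader introns that end at the same acceptor, with an adjusted p of 0.0342 at 5 months against 3 weeks. The intron at chr3:107102757-107103183 (plus strand), annotated in Kcna2-202, had 4.27% of the usage at 5 months and 28.4% at 3 weeks in the authors' deposited table. The intron at chr3:107101760-107103183, annotated in Kcna2-201, had 88.7% at 5 months and 66.7% at 3 weeks in the authors' deposited table, and the one at chr3:107101395-107103183 (Kcna2-203) had 7.04% and 4.98%. These introns lie in the 5′ untranslated leader, and the Kcna2-201 intron was the most used at both ages. In the authors' deposited table of 19 months against 3 weeks the same cluster was not called (adjusted p = 0.254), with the Kcna2-202 intron at 12.03% and 28.7%.

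In Kcnc2 the authors' deposited table called the cassette exon printed above at 19 months against 3 weeks (adjusted p = 0.0373). The intron that skips it, chr10:112456536-112458489 (plus strand), had 40.9% of the usage at 19 months and 59.95% at 3 weeks in the authors' deposited table. The introns on either side of the exon, chr10:112456536-112456928 and chr10:112457033-112458489, had 23.3% and 35.8% at 19 months, against 19.2% and 20.9% at 3 weeks, in the authors' deposited table. At 5 months against 3 weeks the skipping intron had 48.3% and 59.4% in the authors' deposited table, and the cluster was not called (adjusted p = 0.470).

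In Kcnip3 the choice between the acceptors 4 bases apart was called at 19 months against 3 weeks in the authors' deposited table (adjusted p = 0.0291). The intron of Kcnip3-201, chr2:127465975-127510828 (minus strand), had 3.21% of the usage at 19 months and 18.8% at 3 weeks, and that of Kcnip3-203, chr2:127465979-127510828, had 96.8% and 81.2%, in the authors' deposited table. The variant with the 4 additional bases was the common one at both ages. In the authors' deposited tables this cluster was left untested in both comparisons with 5 months for want of valid samples. In the authors' deposited DIEGO tables, described further on, the junction of Kcnip3-201 was not called at 19 months against 3 weeks (q = 1) and was called at 5 months against 3 weeks (q = 0.0464). In Kcnh7 the cluster of the microexon was called at 19 months against 5 months (adjusted p = 0.0478) in the authors' deposited table. The annotated intron that skips the microexon, chr2:62837281-62850349 (minus strand, Kcnh7-202), had 0.0495% of the usage at 19 months and 1.97% at 5 months in the authors' deposited table. An unannotated intron, chr2:62845339-62850349, also spans the microexon and had 1.90% and 2.49% in the authors' deposited table. The unannotated introns chr2:62837281-62845314 and chr2:62845339-62845753 had 4.51% and 2.08% at 19 months, against 6.79% and 3.50% at 5 months, in the authors' deposited table. The introns on the sides of the microexon, chr2:62837281-62845753 and chr2:62845775-62850349, had 46.9% and 44.6% at 19 months, against 42.6% and 42.7% at 5 months, in the authors' deposited table. No change in the Kcnh7 cluster exceeded 5 percentage points.

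**Figure D5:**
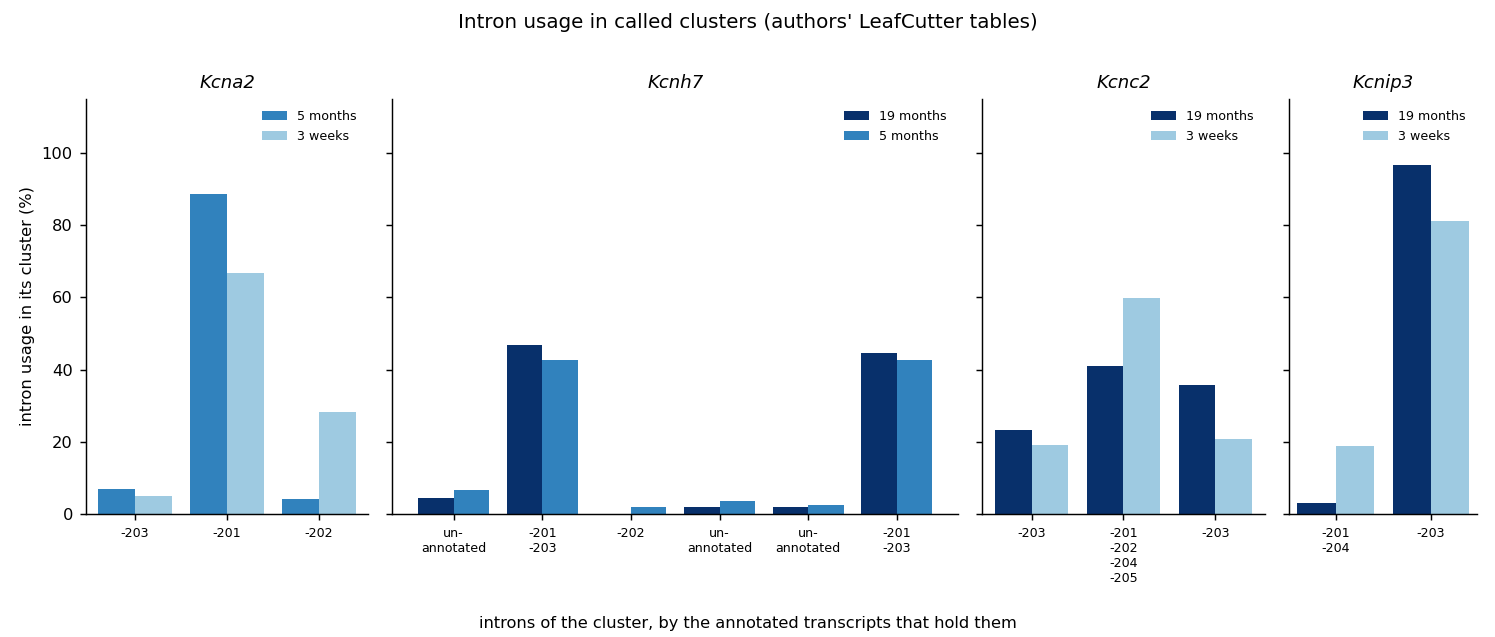
Intron usage (percent of its cluster, authors' LeafCutter tables) in 4 clusters of potassium channel genes that were called between ages, with the later age on the left of each pair of bars. Bars are the authors' estimates for an age group and have no error bars. The Kcna2-202 intron had 4.27% at 5 months and 28.4% at 3 weeks, and the Kcnc2 skipping intron 40.9% at 19 months and 59.95% at 3 weeks.

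DIEGO, which compares the abundance of single junctions of a gene, gave further calls. In the authors' deposited table for 5 months against 3 weeks, 8 of 385 junctions in 41 potassium channel genes had a q-value under 0.05, against 1.48% of all junctions. The authors' deposited table places 2 of them in Kcnq5 and 1 each in Kcnh5, Kcnip3, Kcnma1 and Kcnt2, all at a p of 0.0209, which is the smallest in that table, and a q of 0.0464. The authors' deposited table for 19 months against 5 months had 0 of 380, against 0.00% of all junctions. At an unadjusted p under 0.05 that authors' deposited table had 4 of 380, and the share over all junctions was not computed. The authors' deposited table for 19 months against 3 weeks had 1 of 373, against 0.690%. That junction, in Kcnma1 at chr14:23501125-23505256 (minus strand), was called in both comparisons with 3 weeks in the authors' deposited tables, which share the 3 weeks libraries. The sign of DIEGO's abundance change is not given in the sources used here, so no direction is taken from it.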

How the data were processed

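Synaptosomes and homogenate were prepared from cerebral cortex, and libraries were made from 10 ng of RNA with the SMARTer Stranded Total RNA-Seq Pico kit, per the labels' protocols. The authors deposited raw counts of reads per gene, and per the submitters' processing notes bcl2fastq 2.20.0.422, cutadapt 1.18, Trimmomatic 0.38 and featureCounts of Subread were used with the GRCm38.p6 build. The sources used here do not give the aligner or the strand setting of the counting. Between the ages, the authors deposited LeafCutter tables with an intron's usage as a fraction of its cluster, a usage difference as a score, and p-values and adjusted p-values per cluster. The authors also deposited DIEGO tables with a score for each junction's abundance change and p-values and q-values.

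The members, the family lists, the marker lists and the tests were chosen with earlier results of these data known. Counts were tested with edgeR 4.0.16 (R 4.3.3): after filterByExpr by group and TMM scaling, the quasi-likelihood F test with robust dispersions was run, and p-values were adjusted by Benjamini-Hochberg over all genes tested. The fit of SYN against TH used its own 8 libraries, and that of the ages used all 12 SYN libraries. Levels are CPM on one TMM scale over all 16 libraries, so they can differ slightly from the fitted fold changes. Values per library are given for the 8 highest and 8 lowest called genes of a comparison with a mean of at least 5 CPM and no overlap between groups, and for the gene with the highest level per kilobase in each family; other members named with values per library were chosen after their values were seen. For partners the rule took the 4 with the smallest adjusted p per comparison, and other partners named were likewise chosen after their values were seen. Library totals were 10640232 to 21719869 counts, and they limit precision for genes of few counts.

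On counts simulated from the real means and library sizes, the SYN against TH fit called 16.7% of genes changed by 0.5 on the log2 scale. It called 57.2% of those changed by 1, and the age fit called 31.5% and 68.6%. Few genes were changed in each simulation, whereas 50.1% were called in the real SYN against TH fit and 24.6% at 5 months against 3 weeks. The adjustment over all genes is stricter where few genes change, so these shares do not give the power of the real fits. Alternatives were RLE and upper-quartile scaling, other filters on low counts, leaving out mitochondrial genes, DESeq2 1.42.0, a replicate block, 1 fit of all 16 libraries, a fold of at least 2, and leaving out each library or both replicate 4 of 5 months SYN and replicate 1 of 19 months SYN. Sequences and transcript names come from GENCODE vM21 on GRCm38, the build of the deposited coordinates. Results of some members and of their transcripts are not reported here and are left out of the figures, though the counts over the 92 genes include them. Antisense genes with other names, such as Kcnq1ot1, lie outside the symbol rule.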

Additional observations from a re-analysis of the deposited data

Results flagged for a closer look

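In groups of 4 libraries, a library is named here when its gap to the nearest of the others, as a share of the group's whole range, exceeds Dixon's 95% critical value. Of 237 combinations of a gene with a mean of at least 5 CPM and a group, 13 were named, and chance names about 1 in 20 such groups.

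At 19 months, replicate 1 of SYN, the library with the highest mitochondrial share, was named for 4 genes. It had 92.0 CPM of Kcnq5, against 114.8 to 117 CPM in the other libraries, and 77.3 CPM of Kcnh1, against 99.5 to 103 CPM. It was high for Kcnk10, with 17.5 CPM against 11.03 to 11.1 CPM, and for Kcnn2, with 27.1 CPM against 23.4 to 23.6 CPM. Replicate 2 of 19 months SYN was low for Kcnj16 (36.9 CPM, against 45.3 to 46.5 CPM) and high for Kcnk13 (19.0 CPM, against 12.8 to 13.6 CPM).

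In TH, replicate 4 had 19.7 CPM of Kcnj13, against 0.582 to 2.499 CPM in the other libraries, and it is the library with the choroid plexus marker sum of 3967 CPM. The same library was high for Kcnab1 (45.0 CPM, against 39.1 to 39.5 CPM) and low for Kcnj16 (16.1 CPM, against 18.8 to 19.4 CPM). Replicate 1 of TH had 42.2 CPM of Kcnk2, against 34.3 to 35.5 CPM, and replicate 3 had 5.43 CPM of Kcng3, against 5.25 to 5.28 CPM.

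At 5 months, replicate 1 of SYN had 53.4 CPM of Kcnc2, against 67.1 to 67.7 CPM in the other libraries. At 3 weeks, replicate 4 of SYN had 23.8 CPM of Kcnn2, against 30.8 to 31.8 CPM. The part of sample makeup or RNA quality in these values was not tested.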

How the results depend on the processing

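Each potassium channel gene called in a comparison kept its direction under every alternative run. With a fold of at least 2 also required, SYN against TH gave 20 genes higher and 1 lower, 5 months against 3 weeks gave 2 and 0, and 19 months against 3 weeks gave 3 and 0. Over all genes, the same rule gave 1353 higher and 2658 lower of 17374 for SYN against TH. Of 15344 genes it gave 491 and 302 at 5 months and 405 and 195 at 19 months, against 3 weeks. Without both replicate 4 of 5 months SYN and replicate 1 of 19 months SYN, counts stayed within 1.5 times, and Kcnn3 for SYN against TH, Kcnf1 and Kcnj12 at 5 months and Kcnj16 at 19 months lost their calls. The 2 genes lower at 19 months than at 3 weeks became 4 with no filter, 4 with DESeq2 and 4 with all 16 libraries in 1 fit.

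Leaving out each library in turn gave 50 to 52 genes higher and 4 to 5 lower for SYN against TH, 12 to 16 higher and 4 to 13 lower for 5 months against 3 weeks, 0 to 1 higher for 19 months against 5 months, and 9 to 18 higher and 2 to 7 lower for 19 months against 3 weeks. The next counts also include the fit without both replicate 4 of 5 months SYN and replicate 1 of 19 months SYN. For SYN against TH, that fit is the same as the one without replicate 4 of SYN and is counted again. Of 513 called values so recomputed for SYN against TH, 16 lost the call. Against 3 weeks, 27 of 286 lost it at 5 months and 32 of 234 at 19 months. In the same order, 3 of 456, 1 of 176 and 2 of 143 calls were ended by RLE or upper-quartile scaling, other filters, leaving out mitochondrial genes, DESeq2, the block or 1 fit of all 16 libraries. The causes were not tested.

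The column headers give the 5 months SYN and TH libraries of a replicate the same sample number, and whether they come from the same animal is not given in the sources used here. Replicate 4 was the highest of its group for choroid plexus markers in both. The deviations of same-numbered libraries correlated at 0.179, 0.0184, 0.0472 and 0.205, all of them positive. SYN replicates 1, 3 and 4 correlated best with the TH library of their own number. Replicate 2 of SYN correlated best with replicate 3 of TH (0.116), and replicate 2 of TH best with replicate 1 of SYN (0.0757). Pairing was therefore neither shown nor excluded, and it was not assumed. With a replicate block, 52 genes were higher and 5 lower for SYN against TH, 16 and 10 at 5 months and 19 and 5 at 19 months against 3 weeks, and 0 and 0 at 19 months against 5 months. Over all genes, the block gave 4152 higher and 4402 lower of 17374 for SYN against TH. Of 15344 genes it gave 2144 and 1926 at 5 months and 1752 and 1642 at 19 months, against 3 weeks. At 19 months against 5 months it gave 124 and 140.

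In the authors' deposited tables, at an adjusted p under 0.01 LeafCutter clusters of these genes gave 0 calls in each of the age comparisons, at a q under 0.01 DIEGO junctions gave 0, and with a usage change of at least 0.1 the count for 19 months against 5 months was 0. Genes of few counts, such as Kcnj8 and Kcnk15, are limited by depth.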

Other observations

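Among the clusters that were not called in the authors' deposited LeafCutter tables, some intron usages still differed by much between the estimates for an age group. The highest change in an uncalled cluster was 22.3 percentage points in a second cluster of Kcnc2 at 5 months against 3 weeks (adjusted p = 0.0639 in the authors' deposited table), 24.5 points in Kcnk2 at 19 months against 5 months (adjusted p = 0.399) and 17.0 points in Kcnip1 at 19 months against 3 weeks (adjusted p = 0.504). The median over uncalled clusters of the highest change in a cluster was 5.01, 7.39 and 4.49 points in the authors' deposited tables of the 3 comparisons. The tables give no value per library, so the spread behind these estimates is unknown.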
